A study of Mus musculus with 12 samples.

Results

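The genes described here encode the subunits of the mitochondrial oxidative phosphorylation machinery that the nuclear genome supplies, measured in mouse liver. They comprise every gene of the deposited array table whose symbol starts with Ndufa, Ndufb, Ndufc, Ndufs, Ndufv, Uqcr, Cox4 to Cox8 or Atp5, together with Sdha, Sdhb, Sdhc and Sdhd, read from probe sets annotated to exactly 1 gene. Only names entered this choice, and it gave 84 of the 12393 genes measured, or 0.678%. Of the 84 genes 45 had several probe sets, and each of these is represented by its brightest one over the 12 arrays. By complex, 33 genes encode subunits of complex I, 4 of complex II, 8 of complex III, 16 of complex IV and 17 of complex V. The prefixes also took in 6 genes that are not subunits, namely the complex I assembly factors Ndufaf1, Ndufaf3, Ndufaf4, Ndufaf5 and Ndufaf7, and Cox7a2l, a factor that joins complexes III and IV into supercomplexes. Ndufa4 carries a complex I name but is counted with complex IV, where its product is known to reside.

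The study compared the livers of mice lacking histone deacetylase 6 (HDAC6 KO), of mice lacking histone deacetylase 9 (HDAC9 KO), of wild-type mice on a high-fat diet with 60% of calories as fat, and of wild-type mice on regular chow with 25% of calories as fat. All animals were C57BL/6 females of 8 to 12 weeks, and whole liver gave the RNA. Each group had 3 arrays (Affymetrix Mouse430A, which read transcripts through sets of short probes), so that every comparison rests on 3 arrays against 3. For the knockouts the labels state a genotype and no diet, and how the alleles were made is not given in the sources used here. The labels do not say whether the 3 samples of a group came from separate mice. The tests therefore measure the spread between these samples, which may be partly technical. In whole liver, fewer cells of a type and less RNA per cell cannot be told apart.

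Values are on the log2 scale, so a difference of 1 is a doubling, and a value compares arrays for 1 probe set but not 1 gene with another. Hdac6 read 6.17, 6.16 and 6.505 in HDAC6 KO livers, against 7.89, 7.98 and 7.86 in chow livers, which matches the genotype label. Hdac9 read 4.04, 4.17 and 4.40 in HDAC9 KO livers, against 4.39, 4.33 and 4.18 in chow livers, so this probe set did not separate the groups and checks nothing about that label. All 11 measured hepatocyte markers had mean values of 11.51 or higher. A list of 12 exocrine pancreas genes stood a median of 3.69 above its mean on HDAC9 KO replicate 2, against -0.64 to 0.22 on the other 11 arrays. High-fat replicate 1 stood apart for the genes described here. The main medians of the members and complexes, the counts above 0 and the counts without overlap are therefore also given without it. These are plain differences of group means over 2 high-fat arrays, with no test. Other medians and counts, such as those of intervals, unadjusted p, assembly factors and all probe sets, are given with it only.

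Oxidative phosphorylation passes electrons from nutrients along the respiratory chain to oxygen and uses the proton gradient this builds to make ATP. Complex I takes electrons from NADH and complex II takes them from succinate. Complex III hands them from ubiquinol to cytochrome c, complex IV passes them from cytochrome c to oxygen, and complex V is the ATP synthase. All but complex II mix subunits made in the mitochondrion with the nuclear-encoded ones measured here, and liver depends on the system for gluconeogenesis, urea synthesis and the burning of fatty acids. Transcription factors known to bind promoters of such genes are NRF1, the ETS-family factor GABP, YY1 and the oestrogen-related receptors, with PGC-1 proteins as their coactivators.

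Promoter sequences of 5 members, 1 for each complex, are shown to give the letters these factors are known to read. They run 5′ to 3′ over the 250 bases before the transcription start, from RefSeq on GRCm38.p6, all on the minus strand, with motif matches in capitals. The windows are chr2:36049339-36049588 for Ndufa8, a complex I accessory subunit, chr13:74350241-74350490 for Sdha, the flavoprotein of complex II, chr4:116075071-116075320 for Uqcrh, the hinge protein of complex III, chr7:30626115-30626364 for Cox6b1, a subunit of complex IV that faces the intermembrane space, and chr5:108434400-108434649 for Atp5k, subunit e of complex V.
Ndufa8: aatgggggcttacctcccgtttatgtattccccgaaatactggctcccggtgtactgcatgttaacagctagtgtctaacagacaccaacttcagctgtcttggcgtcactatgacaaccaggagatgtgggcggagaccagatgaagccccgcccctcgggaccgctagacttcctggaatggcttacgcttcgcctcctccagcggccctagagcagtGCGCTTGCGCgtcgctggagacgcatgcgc
Sdha: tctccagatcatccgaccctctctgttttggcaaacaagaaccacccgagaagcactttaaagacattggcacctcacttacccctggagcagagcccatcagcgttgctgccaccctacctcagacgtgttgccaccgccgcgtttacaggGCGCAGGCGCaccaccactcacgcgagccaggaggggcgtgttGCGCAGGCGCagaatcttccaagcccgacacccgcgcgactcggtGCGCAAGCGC
Uqcrh: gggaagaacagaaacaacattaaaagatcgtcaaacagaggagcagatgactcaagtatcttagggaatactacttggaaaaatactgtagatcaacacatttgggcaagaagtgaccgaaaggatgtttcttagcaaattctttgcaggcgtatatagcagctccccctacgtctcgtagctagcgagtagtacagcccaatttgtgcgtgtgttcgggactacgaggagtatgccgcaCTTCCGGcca
Cox6b1: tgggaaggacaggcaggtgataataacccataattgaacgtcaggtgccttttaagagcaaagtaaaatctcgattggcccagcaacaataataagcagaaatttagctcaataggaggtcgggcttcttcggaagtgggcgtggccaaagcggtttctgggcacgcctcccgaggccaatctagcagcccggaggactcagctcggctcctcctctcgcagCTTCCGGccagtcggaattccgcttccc
Atp5k: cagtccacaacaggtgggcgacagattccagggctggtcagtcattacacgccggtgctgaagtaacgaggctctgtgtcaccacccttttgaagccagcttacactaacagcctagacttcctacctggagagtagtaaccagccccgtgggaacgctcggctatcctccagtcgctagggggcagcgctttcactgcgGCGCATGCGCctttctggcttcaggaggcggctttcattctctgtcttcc
The capitals in Ndufa8, Sdha and Atp5k mark the NRF1 motif, which is GCGCA, any base, then GCGC, on either strand. Ndufa8 holds it between bases 30 and 21 before the start, and Atp5k between bases 50 and 41. Sdha holds it at 3 places, the nearest of which ends at base 1 before the start. The capitals in Uqcrh and Cox6b1 mark the ETS motif, CCGGAAG, read on the other strand.

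RefSeq promoters of 300 bases (250 before the start and 50 after) were found for 70 of the 84 members, 75 promoters in all. The NRF1 motif was present in 22.7% of these promoters, against 4.6% of all 32851 promoters and 7.96% of those of genes on the array. The ETS motif was present in 24% (18 of 75), against 8.86% of all promoters and 14.0% of those on the array. The YY1 motif, AANATGGCG, was present in 12.0%, against 2.38% and 3.87%. The receptor motif, TNAAGGTCA, was present in 2.67% (2 of 75), against 1.28% of all promoters and 0.868% of those on the array. All 4 motifs were read on both strands, and the end of an ETS match can overlap the start of a YY1 match. A match describes letters and not a site. At least 1 motif was found in 54.3% of the 70 members, against 27.4% of genes on the array and 17.1% of all genes with a promoter. By complex this held for 12 of 15 complex V genes, 3 of 3 complex II genes, 14 of 30 complex I genes, 3 of 5 complex III genes and 3 of 11 complex IV genes with a promoter. The count in complex IV was near the share of genes on the array. The median GC content was 58.7% in member promoters and 59.0% in those of genes on the array.

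None of the 84 genes passed an adjusted p under 0.05 in any of the 6 comparisons between groups (limma moderated test, Benjamini-Hochberg adjustment over the 12393 genes of a comparison). The genes called over the whole array were few. They made up 0.0161% of genes in HDAC6 KO against chow, 0.0968% in HDAC9 KO against chow, 0.29% in high-fat against chow, 0.00807% in HDAC9 KO against HDAC6 KO, 0.145% in high-fat against HDAC6 KO and 0.436% in high-fat against HDAC9 KO. At an unadjusted p under 0.05, 1 of the 84 members was counted in each of the 6 comparisons. The share of all genes was 5.77% in HDAC6 KO against chow, 6.08% in HDAC9 KO against chow, 8.48% in high-fat against chow, 3.8% in HDAC9 KO against HDAC6 KO, 7.27% in high-fat against HDAC6 KO and 8.1% in high-fat against HDAC9 KO. The smallest p that ranks of 3 against 3 arrays can give is 0.1.

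With the 4 groups pooled, the members varied less within groups than the typical gene, and their intervals were narrower. The members were also brighter, with a median level of 11.06 against 6.39 over all genes. In high-fat livers alone the members varied more than the typical gene, as given below. The pooled standard deviation within groups had a median of 0.10 over the members and 0.15 over all genes. The 95% confidence interval of a difference reached a median of 0.20 to either side for the members and 0.27 for all genes. In HDAC6 KO against chow, the whole interval lay within a 1.5-fold change either way for 81 of 84 members, and within a 1.3-fold change for 72. These counts were 81 and 73 in HDAC9 KO against chow, and 82 and 71 in high-fat against chow. No share over all genes is set beside these counts, so they do not set the members apart. Cox7a1 and Ndufaf4 had intervals reaching beyond a 1.5-fold change in all 3 of these comparisons, Cox6b2 in HDAC6 KO against chow and Cox7c in HDAC9 KO against chow.

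**Figure D1:**
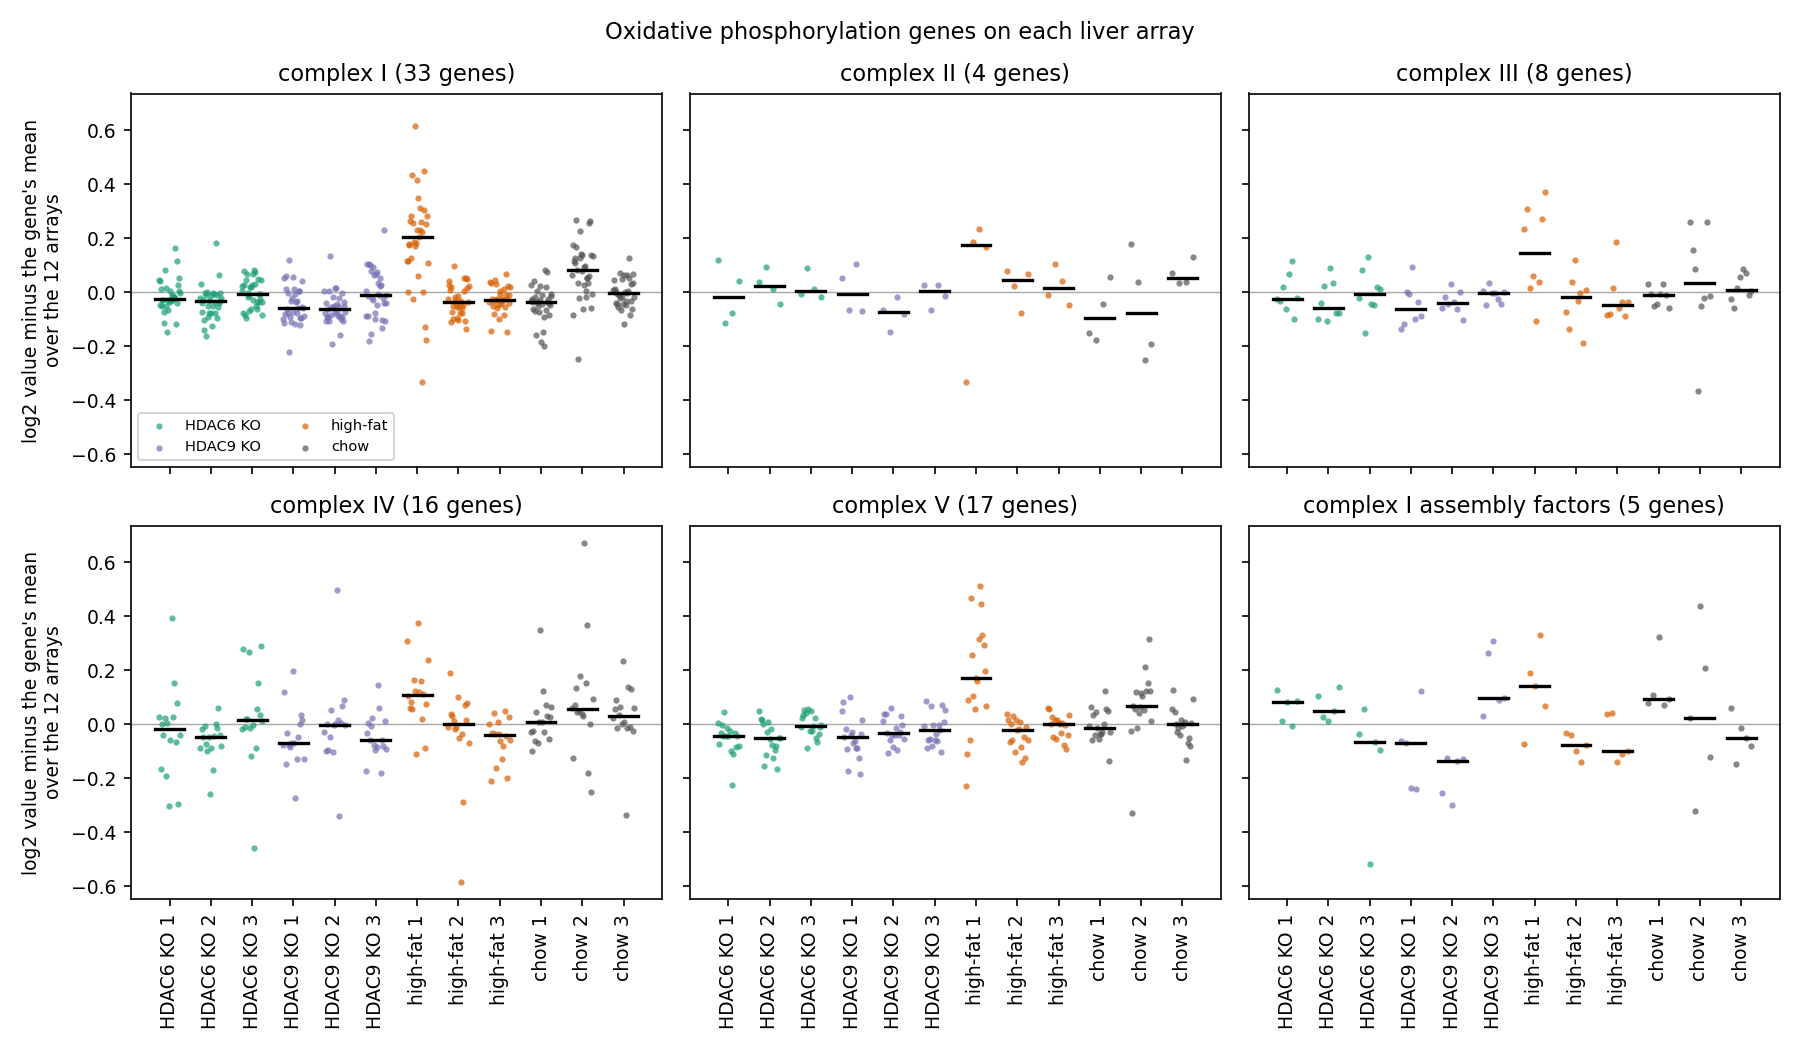
Each point is 1 gene on 1 array, as its log2 value minus the gene's mean over the 12 arrays (vertical axis), with the 12 arrays along the horizontal axis, coloured by group, and 1 panel for each complex and for the assembly factors (Cox7a2l is not drawn). Black bars are medians over the genes of a panel, and high-fat replicate 1 has the highest median in every panel, for example 0.20 in complex I and 0.17 in complex V.

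In HDAC6 KO livers the members lay slightly below chow. The median difference was -0.029 over the 84 members and -0.014 over all genes, and 26 of 84 members lay above 0, against 45.6% of all genes. The members' median was -0.062 without chow replicate 1, -0.010 without chow replicate 2 and -0.018 without HDAC6 KO replicate 2. By complex the medians were -0.024 for complex I, 0.039 for complex II, -0.016 for complex III, -0.057 for complex IV and -0.046 for complex V. All 3 HDAC6 KO arrays lay below all 3 chow arrays for 7 members, where this held for 5.31% of all genes. They lay above them for 1 member, where this held for 4.83%. The count of lower members is near the background.

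The smallest p in HDAC6 KO against chow belonged to Cox6b2, the testis-type isoform of a complex IV subunit. It read 4.08, 4.13 and 4.27 in HDAC6 KO livers, against 4.73, 4.42 and 4.62 in chow livers, a difference of -0.43 (SE 0.116, adjusted p = 0.585). Each HDAC6 KO array lay below each chow array, but the gene is among those of low signal described below. Ndufaf4, which helps assemble complex I, read 8.75, 8.68 and 8.15 in HDAC6 KO livers, against 8.996, 9.111 and 8.658 in chow livers (difference -0.39, SE 0.185, adjusted p = 0.865). HDAC6 KO replicate 3 was the lowest array, and the groups overlapped. The other members of small p were small accessory subunits. Atp5mpl of complex V read 10.74, 10.66 and 10.79 in HDAC6 KO livers, against 10.88, 11.14 and 10.75 in chow livers (difference -0.19). Uqcr10 of complex III read 10.79, 10.71 and 10.79 in HDAC6 KO livers, against 10.84, 11.07 and 10.79 in chow livers (difference -0.14). In both genes chow replicate 2 was the highest array of the 6. Ndufa3 of complex I read 11.82, 11.75 and 11.77 in HDAC6 KO livers, against 11.89, 11.96 and 11.85 in chow livers (difference -0.12, adjusted p = 0.914), with no overlap.

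In HDAC9 KO livers the members also lay below chow, in more genes. The median difference was -0.057 over the members and -0.014 over all genes, and 18 of 84 lay above 0, against 46.0% of all genes. The medians by complex lay close together, at -0.047 for complex I, -0.041 for complex II, -0.064 for complex III, -0.075 for complex IV and -0.061 for complex V. All 3 HDAC9 KO arrays lay below all 3 chow arrays for 14 members and above them for 0, where 7.21% of all genes were lower without overlap and 5.39% higher. These 14, of which those named here were chosen after their values were seen, included Cox6a1, Cox6b1, Cox6c, Cox7c and Ndufa4 of complex IV, Atp5d, Atp5e and Atp5j of complex V, and Uqcrfs1, the iron-sulphur protein of complex III. The sizes were small, and without chow replicate 2 the median difference of the members was -0.028.

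Cox7c, a small subunit of complex IV, had the smallest p in HDAC9 KO against chow. It read 5.98, 5.68 and 5.85 in HDAC9 KO livers, against 6.10, 6.39 and 6.16 in chow livers, a difference of -0.38 (SE 0.127, adjusted p = 0.629). The groups did not overlap. The gene's mean over the 12 arrays was 6.03, a low signal under the median of 6.39 over all genes. Its second probe set, with a mean of 3.31 over the 12 arrays, gave a difference of -0.10. Cox6b1, the somatic partner of Cox6b2, read 12.02, 11.99 and 12.01 in HDAC9 KO livers, against 12.10, 12.27 and 12.09 in chow livers (difference -0.15, SE 0.0753, adjusted p = 0.829). The HDAC9 KO arrays were the 3 lowest of the 12 for this gene. Ndufa4 read 12.12, 12.25 and 12.16 in HDAC9 KO livers, against 12.32, 12.34 and 12.31 in chow livers (difference -0.15, adjusted p = 0.84). Ndufaf4 read 8.43, 8.37 and 8.98 in HDAC9 KO livers, against 8.996, 9.111 and 8.658 in chow livers, a difference of -0.33 (adjusted p = 0.832) with overlap. Ndufaf1, which acts early in complex I assembly, read 8.79, 8.60 and 8.88 in HDAC9 KO livers, against 8.93, 8.87 and 8.91 in chow livers (difference -0.15), with overlap. HDAC9 KO replicate 2, where the exocrine pancreas list stood high, was the lowest of the 12 arrays for Cox7c, Cox6b1 and Ndufaf1. For Ndufa4 it was the highest HDAC9 KO array.

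In high-fat livers the members lay on both sides of chow. The median difference was 0.018 over the members and -0.010 over all genes, with 50 of 84 above 0, against 47.2% of all genes. Complex II had a median of 0.10 over its 4 genes and complex I one of 0.034, while complexes III, IV and V had medians of -0.013, -0.022 and 0.024. The groups did not overlap for 3 members that were higher (Uqcrc1, Ndufa8 and Ndufs8), against 7.02% of all genes, and 3 that were lower (Cox7c, Ndufs1 and Ndufs7), against 7.71%. Without high-fat replicate 1 the median difference of the members was -0.045, so its sign rested on that array, and 26 of 84 members lay above 0, against 46.0% of all genes. The medians were then -0.033 for complex I, 0.040 for complex II, -0.050 for complex III, -0.068 for complex IV and -0.034 for complex V. Without that array 3 members were higher without overlap, against 12.3% of all genes, and 23 were lower, against 15.2%. The 3 higher members were again Uqcrc1, Ndufa8 and Ndufs8, with differences of 0.27, 0.17 and 0.07.

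Uqcrc1, a core protein of complex III, had the smallest p in high-fat against chow. It read 11.03, 11.09 and 11.16 in high-fat livers, against 10.93, 10.61 and 11.03 in chow livers, a difference of 0.24 (SE 0.106, adjusted p = 0.555). Chow replicate 2 was the low array, and the nearest arrays of the groups both rounded to 11.03 without overlapping. Ndufa8 read 10.74, 10.58 and 10.53 in high-fat livers, against 10.45, 10.24 and 10.47 in chow livers (difference 0.23, SE 0.113, adjusted p = 0.61). Cox7c, a gene of low signal, read 6.05, 5.74 and 6.07 in high-fat livers, against 6.10, 6.39 and 6.16 in chow livers (difference -0.27, adjusted p = 0.598). Ndufs7, the complex I subunit that carries the last iron-sulphur cluster before ubiquinone, read 10.50, 10.50 and 10.48 in high-fat livers, against 10.55, 10.90 and 10.66 in chow livers (difference -0.21, adjusted p = 0.623). Its high-fat arrays were almost equal and lay below the 9 others. Cox6b2 read 4.28, 4.49 and 4.35 in high-fat livers, against 4.73, 4.42 and 4.62 in chow livers (difference -0.22, adjusted p = 0.636), with overlap.

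**Figure D2:**
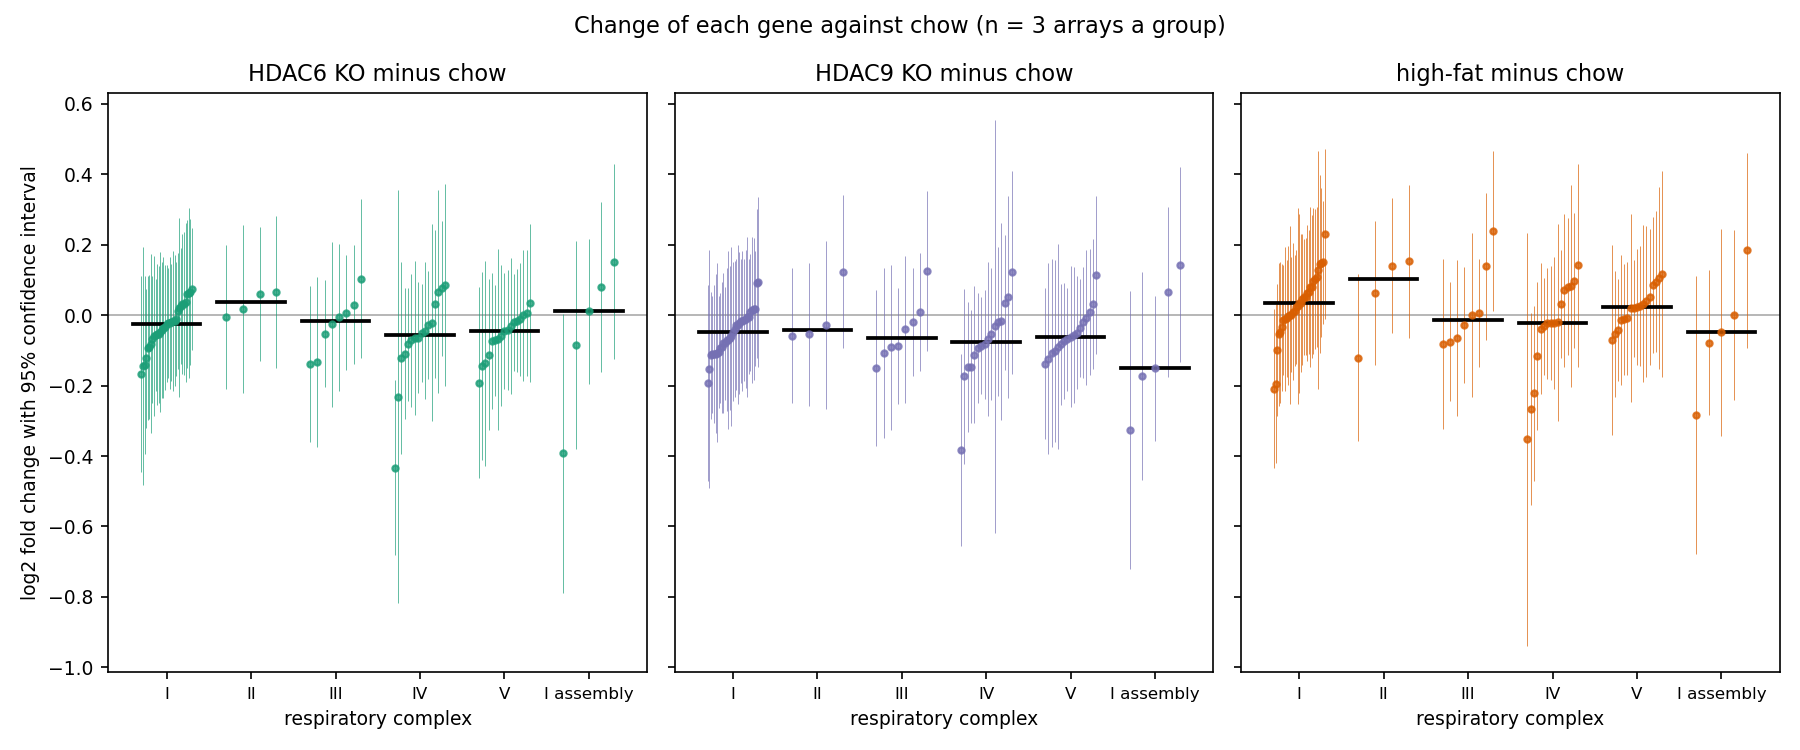
Each point is 1 gene, as the log2 fold change of HDAC6 KO, HDAC9 KO or high-fat livers against chow livers (vertical axis, n = 3 arrays a group) with its 95% confidence interval, grouped by complex along the horizontal axis. Black bars are medians over the genes of a complex, and the points of all complexes lie around 0, with the lowest at -0.43 (Cox6b2 in HDAC6 KO) and the highest at 0.24 (Uqcrc1 in high-fat).

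Between the knockouts the members differed little. The median of HDAC9 KO minus HDAC6 KO was -0.016 over the members and -0.001 over all genes, and 32 of 84 lay above 0, against 49.7% of all genes. The groups did not overlap for 2 members that were higher, against 3.74% of all genes, and 7 that were lower, against 4.71%. Cox6b2 read 4.58, 4.38 and 4.29 in HDAC9 KO livers, against 4.08, 4.13 and 4.27 in HDAC6 KO livers, a difference of 0.26 (SE 0.116). Cox7c read 5.98, 5.68 and 5.85 in HDAC9 KO livers, against 6.18, 6.03 and 6.08 in HDAC6 KO livers, a difference of -0.26 (SE 0.127). These were the extremes of the comparison, in opposite directions and both at low signal. Ndufaf1, Ndufs1 and Sdhb followed, with differences of -0.16, -0.15 and -0.12.

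Against either knockout, high-fat livers read higher for most members. The median of high-fat minus HDAC6 KO was 0.060 over the members and 0.007 over all genes, with 66 of 84 above 0, against 52.1% of all genes. The median of high-fat minus HDAC9 KO was 0.071 over the members and 0.005 over all genes, with 69 of 84 above 0, against 51.4% of all genes. Without high-fat replicate 1 the median was -0.004 against HDAC6 KO, with 39 of 84 above 0 and 50.3% of all genes, and 0.002 against HDAC9 KO, with 44 of 84 above 0 and 50.03% of all genes. In high-fat against HDAC6 KO the groups did not overlap for 5 members that were higher, against 6.6% of all genes, and 2 that were lower, against 6.54%. In high-fat against HDAC9 KO they did not overlap for 11 members that were higher, against 7.67% of all genes, and 1 that was lower, against 6.13%. Without high-fat replicate 1 these counts were 7 higher and 11 lower against HDAC6 KO, where 11.7% and 11.2% of all genes were, and 13 higher and 5 lower against HDAC9 KO, where 14.4% and 12.8% of all genes were.

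Ndufs1, the largest complex I subunit and the bearer of several of its iron-sulphur clusters, read 9.66, 10.002 and 9.95 in high-fat livers, against 10.16, 10.18 and 9.96 in HDAC6 KO livers (difference -0.23, SE 0.106, adjusted p = 0.67). Atp5k read 12.22, 11.62 and 11.71 in high-fat livers, against 11.48, 11.58 and 11.73 in HDAC6 KO livers (difference 0.25, SE 0.136, adjusted p = 0.771). In both genes high-fat replicate 1 was the extreme array, low for Ndufs1 and high for Atp5k, and without it the differences were -0.13 and 0.07. Atp5j2, subunit f of the ATP synthase, had a difference of 0.16 in high-fat against HDAC6 KO, and of 0.05 without high-fat replicate 1. Ndufb1, a small membrane arm subunit of complex I measured at low signal, had one of 0.27, and of 0.05 without that array. For Cox6b2 the difference was 0.21 with it and 0.26 without it. Sdhb, the iron-sulphur subunit of complex II, read 11.85, 11.69 and 11.77 in high-fat livers, against 11.60, 11.52 and 11.60 in HDAC9 KO livers (difference 0.20, SE 0.0893, adjusted p = 0.589). Cox4i1, the regulatory subunit IV of complex IV, read 12.43, 12.11 and 12.12 in high-fat livers, against 12.04, 12.09 and 11.95 in HDAC9 KO livers (difference 0.19, SE 0.0907, adjusted p = 0.618). Neither gene's groups overlapped, and without high-fat replicate 1 the differences were 0.16 for Sdhb and 0.09 for Cox4i1. Ndufa13 read 11.99, 11.82 and 11.85 in high-fat livers, against 11.73, 11.71 and 11.73 in HDAC9 KO livers (difference 0.16, and 0.11 without high-fat replicate 1), also without overlap. Ndufs5 and Ndufs8 differed by 0.19 and 0.16 between high-fat and HDAC9 KO livers, and by 0.09 and 0.09 without that array.

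**Figure D3:**
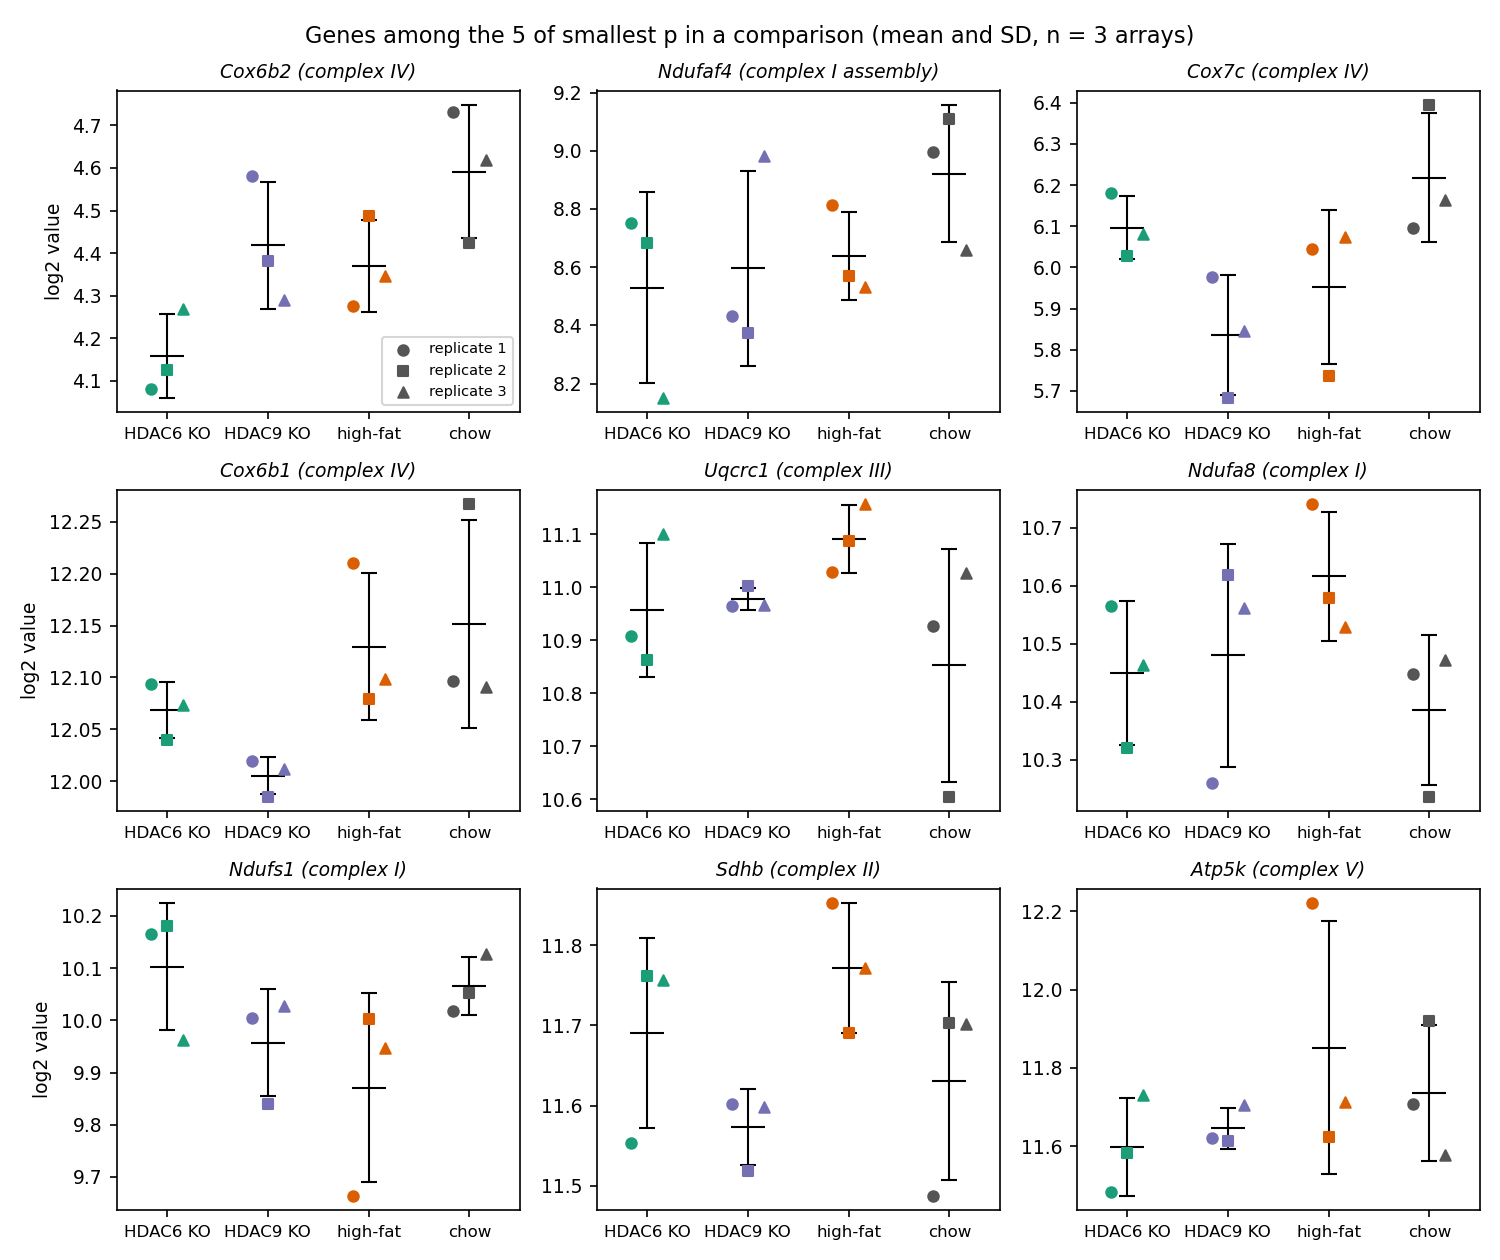
Log2 values (vertical axis, a scale of its own for each gene) of 9 genes among the 5 of smallest p in a comparison, for the HDAC6 KO, HDAC9 KO, high-fat and chow groups along the horizontal axis. Circles, squares and triangles are replicates 1, 2 and 3, and bars give the mean and SD (n = 3 arrays). In Atp5k the high array is high-fat replicate 1 at 12.22, and in Uqcrc1 the low array is chow replicate 2 at 10.61.

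Complex I was covered by 14 genes of its peripheral arm, which holds the flavin and the iron-sulphur clusters, and 19 of its membrane arm, which pumps protons. In HDAC6 KO against chow the peripheral arm had a median of -0.033 and the membrane arm one of -0.022. Ndufs4, an accessory subunit of the peripheral arm whose loss causes Leigh syndrome in humans, read 9.36, 9.38 and 9.44 in HDAC6 KO livers, against 9.55, 9.74 and 9.40 in chow livers, with overlap. In HDAC9 KO livers it read 9.38, 9.38 and 9.35 and lay below every chow array (difference -0.19, SE 0.13, adjusted p = 0.868). Ndufs8, a core iron-sulphur subunit, read 11.65, 11.41 and 11.41 in high-fat livers, against 11.35, 11.33 and 11.33 in chow livers (difference 0.15, adjusted p = 0.657, and a difference of 0.07 without high-fat replicate 1). Ndufa13 differed by -0.11 between HDAC9 KO and chow livers, with no overlap.

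Complex II is the only complex whose subunits are all nuclear-encoded, and it also belongs to the citric acid cycle. Sdha, which oxidises succinate, read 11.46, 11.38 and 11.34 in HDAC6 KO livers, 11.40, 11.28 and 11.37 in HDAC9 KO livers, and 11.01, 11.42 and 11.34 in high-fat livers, against 11.19, 11.52 and 11.42 in chow livers. High-fat replicate 1 was its lowest array. Sdhb differed from chow by 0.06 in HDAC6 KO, -0.06 in HDAC9 KO and 0.14 in high-fat livers. Sdhc, a membrane anchor, differed from chow by 0.07 in HDAC6 KO, 0.12 in HDAC9 KO and 0.15 in high-fat livers. Sdhd, the other anchor, differed by -0.01, -0.05 and 0.06 in those groups. Without high-fat replicate 1 the high-fat differences were 0.00 for Sdha, 0.10 for Sdhb, 0.07 for Sdhc and 0.01 for Sdhd. Each difference over all arrays was smaller than 2 standard errors, and none had non-overlapping groups against chow.

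Complex III differences from chow ran from -0.15 (Uqcr10 in HDAC9 KO) to 0.24 (Uqcrc1 in high-fat). Uqcrc1 differed by 0.12 in HDAC9 KO and by 0.10 in HDAC6 KO, with overlap in both. Uqcrh differed from chow by -0.13 in HDAC6 KO livers, and Uqcrq, another small subunit, by 0.14 in high-fat livers (12.17, 11.80 and 11.76 in high-fat livers, against 11.74, 11.78 and 11.80 in chow livers). High-fat replicate 1 was the only array of Uqcrq outside the chow range by more than 0.1 in this comparison.

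Complex IV holds the pairs of tissue isoforms. The forms known from most tissues were Cox4i1, Cox6a1, Cox6b1, Cox7a2 and Cox8a, and their means over the 12 arrays were 12.12, 13.26, 12.09, 12.38 and 10.89. The forms known from lung, heart, skeletal muscle or testis were Cox4i2, Cox6a2, Cox6b2, Cox7a1, Cox8b and Cox8c, with means of 4.29, 5.80, 4.38, 5.27, 4.37 and 6.58. All but Cox8c had a mean under 6.39, the median over all genes, which served as a filter on low signal. A list of 24 genes not known from liver had means between 2.67 and 7.59, so these values cannot be told from background without detection calls, which were not used here. The restricted forms, and Cox7c with its mean of 6.03, are counted in the medians and the correlation given for complex IV. None of the restricted forms passed the test in any comparison. Cox7a1 varied most, at 5.67, 5.10 and 4.81 in HDAC6 KO livers, 4.998, 5.77 and 5.42 in HDAC9 KO livers and 5.39, 4.69 and 5.14 in high-fat livers, against 5.40, 5.95 and 4.94 in chow livers. The common forms varied little. Cox6a1 read 13.29, 13.19 and 13.28 in HDAC6 KO livers and 13.18, 13.21 and 13.25 in HDAC9 KO livers, against 13.31, 13.31 and 13.30 in chow livers. It lay below chow without overlap in both, with differences of -0.05 in HDAC6 KO and -0.09 in HDAC9 KO livers.

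Complex V was covered by 5 genes of the catalytic F1 head, 4 of the stalk, 3 of the membrane ring and 5 accessory subunits of the membrane part. Atp5b, the catalytic beta subunit, read 12.22, 12.17 and 12.22 in HDAC9 KO livers, against 12.20, 11.80 and 12.26 in chow livers (difference 0.11, SE 0.105). Chow replicate 2 was the low array, so the difference rested on it. Atp5l, subunit g, read 11.24, 11.25 and 11.30 in HDAC6 KO livers, against 11.47, 11.47 and 11.28 in chow livers (difference -0.14, SE 0.125). Atp5md, an accessory subunit, read 10.86, 10.95 and 10.88 in HDAC9 KO livers, against 11.04, 11.14 and 10.93 in chow livers (difference -0.14, SE 0.1). Both overlapped. Atp5g1, which encodes the c subunit of the rotating ring, read 11.16, 10.93 and 10.91 in high-fat livers, against 10.94, 10.88 and 10.89 in chow livers (difference 0.10). Atp5j2 differed by 0.09 in the same comparison, at 12.11, 11.80 and 11.76 in high-fat livers, against 11.76, 11.84 and 11.80 in chow livers. In both genes high-fat replicate 1 was the highest high-fat array, and the other 2 lay within 0.1 of the chow arrays.

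The complex I assembly factors encode proteins that build the complex and are not part of it. Their medians against chow were 0.011 in HDAC6 KO, -0.151 in HDAC9 KO and -0.049 in high-fat livers, over 5 genes. Ndufaf4 lay below chow in the mean of each of the other groups, with differences of -0.39, -0.33 and -0.28 in HDAC6 KO, HDAC9 KO and high-fat livers, and its second probe set gave -0.50, -0.41 and -0.37. These comparisons share the chow arrays, and the array values overlapped in all 3. In high-fat against chow the overlap rested on high-fat replicate 1, without which Ndufaf4 differed by -0.37 with no overlap. Ndufaf3, Ndufaf5 and Ndufaf7 differed from chow by at most 0.18 in either direction. Cox7a2l differed by 0.04 in HDAC6 KO, 0.01 in HDAC9 KO and 0.02 in high-fat livers. Without high-fat replicate 1 the high-fat differences were -0.13 for Cox7a2l and -0.20 for Ndufaf5, both below chow without overlap. This held for 15.2% of all genes without that array. A wider list of 27 measured assembly factors of complexes I to V had no gene that passed the test in any comparison.

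The most marked pattern among the members lay within a group and not between groups. High-fat replicate 1 held the highest value of the 12 arrays for 47 of the 84 members, where it held the highest value for 14.3% of all genes. Chow replicate 2 held the highest value for 16 members, where it did so for 18.5% of all genes. Each of the other 10 arrays held it for 0 to 5. The members stood a median of 0.17 above their mean on high-fat replicate 1 and 0.06 above it on chow replicate 2, and between -0.06 and 0.00 on the other 10. Over all genes the medians were 0.02 on high-fat replicate 1 and 0.04 on chow replicate 2, so the members were near the array as a whole on the latter. The typical standard deviation of a member was 0.052 within HDAC6 KO, 0.056 within HDAC9 KO, 0.135 within high-fat and 0.093 within chow livers. Over all genes it was 0.136, 0.114, 0.122 and 0.131 in those groups, so the members varied more only in high-fat livers.

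Compared with the mean of the other 2 high-fat arrays, high-fat replicate 1 was higher for 70 of 84 members, by a median of 0.21, where it was higher for 52.6% of all genes, by a median of 0.02. The difference was over 0.2 for 43 members, where it was over 0.2 for 19.9% of all genes. It was under -0.2 for 3 members, Sdha, Ndufs1 and Atp5a1. The genes of this paragraph and the next were singled out after their values were seen, and 1 array against 2 of its own group allows no test of the groups.

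By place of the subunit, the membrane arm of complex I had a median of 0.24, with 18 of 19 genes above 0, and the peripheral arm one of 0.20, with 10 of 14 above 0. In complex V the membrane accessory subunits had a median of 0.40 (5 of 5 above 0), the ring one of 0.18 (3 of 3), the stalk one of 0.17 (4 of 4) and the F1 head one of -0.07 (2 of 5). The differences between places were not tested. Within complex I, the 6 measured core subunits, which are conserved in bacteria and carry the catalytic centres, had a median of -0.02 with 3 of 6 above 0, and the 27 accessory subunits one of 0.24 with 25 above 0. The core subunits went both ways, with Ndufv2 at 0.32, Ndufs8 at 0.23 and Ndufs1 at -0.31. The largest differences were in Ndufb1 (6.17 on high-fat replicate 1, against 5.52 and 5.50 on replicates 2 and 3), Atp5l (11.80, against 11.21 and 11.27) and Atp5k (12.22, against 11.62 and 11.71), which encode small subunits. Of these, Ndufb1 is of low signal, with a mean of 5.56 over the 12 arrays. At the low end, Sdha read 11.01, against 11.42 and 11.34, Ndufs1 read 9.66, against 10.002 and 9.95, and Atp5a1, the alpha subunit of the F1 head, read 11.53, against 11.79 and 11.82. Ndufv1 and Atp5b also lay lower on replicate 1, by 0.20 and 0.15.

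**Figure D4:**
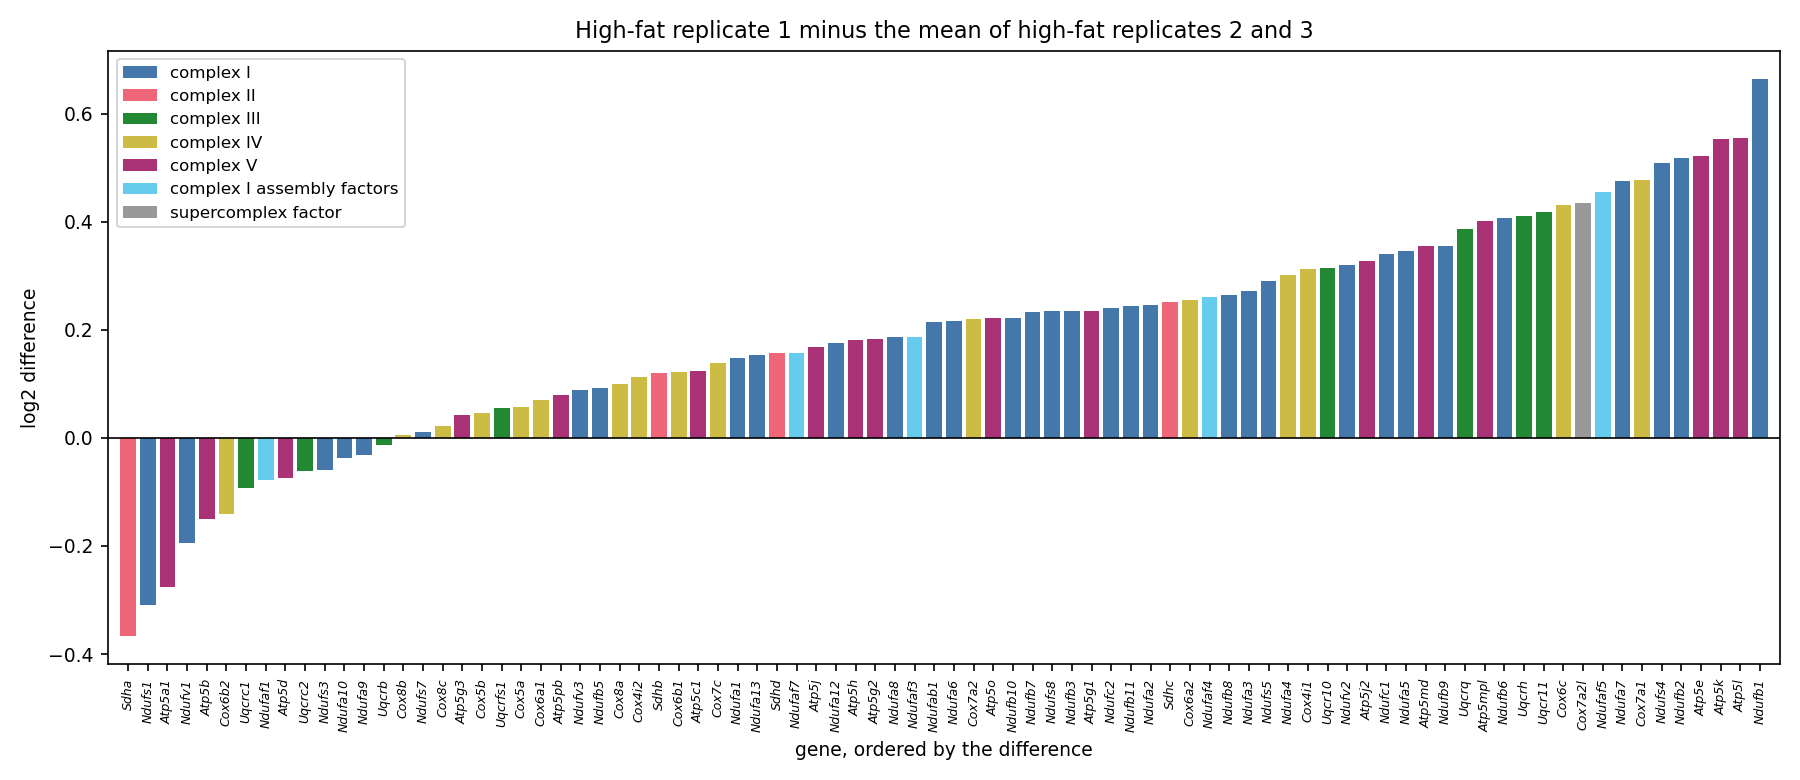
Log2 difference between high-fat replicate 1 and the mean of high-fat replicates 2 and 3 (vertical axis) for each of the 84 genes, ordered along the horizontal axis and coloured by complex. Bars above 0 are higher on replicate 1, as for 70 genes, and the lowest bars belong to Sdha, Ndufs1 and Atp5a1.

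Other gene lists also stood apart on this array. The 47 cytosolic ribosomal protein genes were higher on high-fat replicate 1 than on the other 2 high-fat arrays by a median of 0.38 (45 of 47 above 0), and the 74 mitochondrial ribosomal protein genes by 0.25 (65 of 74). The 16 citric acid cycle genes had a median of -0.17, with 2 of 16 above 0, and the 20 electron carriers and exchangers one of 0.00. The 11 hepatocyte markers had a median of -0.06, with 3 of 11 above 0, and the 10 Kupffer cell markers one of 0.29, with 9 of 10 above 0. The Kupffer list stood 0.34 above its mean on high-fat replicate 1, 0.15 and 0.00 on replicates 2 and 3, and between -0.41 and 0.20 on the arrays of the other groups. The cytosolic ribosomal list stood 0.19 above its mean on high-fat replicate 1. It stood at -0.19 and -0.15 on replicates 2 and 3, the lowest of the 12 arrays, so its difference also rested on those. Whether cell composition, RNA quality or labelling had a part in the pattern was not tested.

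The members also varied together from array to array. After each group's mean was removed, the median Pearson correlation between 2 members over the 12 arrays was 0.32 (3486 pairs), and over all pairs of genes it was 0.004. It was 0.56 within complex I and 0.50 within complex V, 0.24 within complex IV and -0.01 within complex III. Without high-fat replicate 1 the median over the members was 0.13, and without chow replicate 2 as well it was 0.08. Most of this correlation therefore rested on those arrays, and the values share arrays, normalization and RNA, so they are a description.

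Other probe sets of the same genes gave no called value either. The 156 probe sets of the 84 genes had medians of -0.03 in HDAC6 KO against chow, -0.05 in HDAC9 KO against chow and 0.02 in high-fat against chow. Of the 45 members with several probe sets, 16, 15 and 14 had probe sets of both signs in those comparisons. The means of a gene's probe sets differed by over 3 on the log2 scale in 13 of the 45.

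The genes that regulate the members were examined beside them. Of 18 measured regulators of mitochondrial biogenesis, 0 passed the test in any comparison. At an unadjusted p under 0.05 the count was 0 in HDAC6 KO against chow, 0 in HDAC9 KO against chow and 2 in high-fat against chow. The share of all genes was 5.77%, 6.08% and 8.48% in those comparisons, so the count of 2 does not set the regulators apart. Of the factors whose motifs are given above, Nrf1 differed from chow by -0.04 in HDAC6 KO, -0.10 in HDAC9 KO and 0.08 in high-fat livers. Gabpa, the DNA-binding subunit of GABP, differed by 0.08, 0.02 and -0.18, and Yy1 by 0.10, -0.05 and -0.16 in those groups. Esrra, an oestrogen-related receptor, read 6.37, 6.32 and 6.04 in HDAC6 KO livers, against 6.60, 6.37 and 6.50 in chow livers (difference -0.25, SE 0.128, adjusted p = 0.865). The 2 regulators counted in high-fat against chow were Polrmt and Ppargc1a, named after their values were seen. Polrmt, the mitochondrial RNA polymerase, read 7.18, 7.94 and 7.81 in high-fat livers, against 8.16, 8.21 and 8.14 in chow livers (difference -0.53, SE 0.189, adjusted p = 0.418), with no overlap, and differed by -0.29 without high-fat replicate 1. The coactivator gene Ppargc1a read 7.02, 7.22 and 7.61 in high-fat livers, against 6.65, 6.82 and 7.27 in chow livers (difference 0.37, adjusted p = 0.557), with overlap. Without high-fat replicate 1 it differed by 0.51, again with overlap. Lists of 20 electron carriers and exchangers, 16 citric acid cycle genes and 74 mitochondrial ribosomal protein genes likewise had 0 genes past the test in the 6 comparisons. At an unadjusted p under 0.05 each list had 0 to 3 genes, where the share of all genes was 3.8% to 8.48%.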

How the data were processed

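Whole-liver RNA of 12 samples was read on Affymetrix Mouse430A arrays, from 100 ng of RNA a sample per the labels' protocols. The authors deposited log2 expression values, 1 for each probe set, made with RMA per the submitters' processing notes. This method subtracts background, equalises the arrays' distributions and sums up the probes of a set. Its software and chip definition are not given in the sources used here. The values were used as deposited, and array medians lay between 5.78 and 5.86. A public annotation gave 20380 of 22626 probe sets 1 gene symbol. The others, 691 with several symbols and 1555 with none, stayed out of the main test. The number of arrays limits the precision.

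Groups were compared with limma 3.58.1 in R 4.3.3, as 1 model of the 12 arrays with a mean for each of the 4 groups and a mean-variance trend, giving a median of 14.32 degrees of freedom. Tests were two-sided, adjusted by the Benjamini-Hochberg method over 12393 genes a comparison, at an adjusted p under 0.05. The adjusted p-values of the report come from this test. Those in the closing section come from the alternative fits, and from a fit of all probe sets for probe sets with several symbols. Confidence intervals use the same standard errors. The procedure was tested on simulated data.

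The members, the gene lists, the tests and the alternatives were chosen with earlier results of these data known. Named were the 5 members of smallest p in each comparison, the 2 of smallest p in each complex against chow, the tissue isoforms with their common partners, the 4 complex II subunits, the prefixes' non-subunits, and Hdac6 and Hdac9. Genes named beyond these were chosen after their values were seen or for their known role.

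Alternatives were a prior without trend, a robust prior, only the 2 groups compared, median centring, quantile normalization, averaging of the probe sets for each gene, separate fits of all probe sets, dropping of those with a shared-probe suffix, filters at mean levels of 4.39 and 6.39 (the 25th and 50th percentiles), a block for the replicate number, and the removal of 1 array at a time. Control probe sets for RNA quality were not used here. Promoters are RefSeq windows on GRCm38.p6. Python 3.11.15 with pandas 2.3.3 and matplotlib 3.10.9 made the figures.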

Additional observations from a re-analysis of the deposited data

How the results depend on the processing

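The count of members past the test was 0 in all 113 recomputed counts of the 6 comparisons, and the smallest adjusted p of any member in any setting was 0.352. The number of genes called over the whole array did change. It ranged from 1 to 4 in HDAC6 KO against chow (2 as reported), 0 to 17 in HDAC9 KO against chow (12), 13 to 38 in high-fat against chow (36), 1 to 4 in HDAC9 KO against HDAC6 KO (1), 8 to 56 in high-fat against HDAC6 KO (18) and 9 to 97 in high-fat against HDAC9 KO (54). With 1 array left out at a time, the median difference of the members ranged from -0.062 to -0.010 in HDAC6 KO against chow, -0.076 to -0.028 in HDAC9 KO against chow, -0.045 to 0.047 in high-fat against chow, -0.031 to -0.009 in HDAC9 KO against HDAC6 KO, -0.004 to 0.093 in high-fat against HDAC6 KO and 0.00203 to 0.109 in high-fat against HDAC9 KO, and the count past the test stayed at 0. With both high-fat replicate 1 and chow replicate 2 left out, a setting chosen after the data were seen, the median in high-fat against HDAC9 KO was 0.00203, against 0.071 with all arrays. This comparison holds no chow array, so the value is that without high-fat replicate 1. Of 3837 recomputed differences of named genes, 118 moved by more than the spread between replicates and 0 passed the test. Removing the 8 members of low signal left medians of -0.027, -0.057 and 0.021 in HDAC6 KO, HDAC9 KO and high-fat livers against chow.

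The replicate numbers are shared between groups, and the labels do not say whether they pair the samples. For samples of the same number, the correlations of their deviations lay between -0.15 and 0.15 over 18 pairs, 4 of them over 0.1. For samples of different number they lay between -0.24 and 0.24. With 3 arrays a group, such values cannot show whether samples of the same number were handled together. With the replicate number as a block, 0 members passed in each of the 6 comparisons, the medians were -0.029 in HDAC6 KO, -0.057 in HDAC9 KO and 0.018 in high-fat livers against chow, and 3, 17 and 33 genes of the array were called in those comparisons.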

Other observations

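A further 8 probe sets carry the symbol of an oxidative phosphorylation gene together with another symbol, so their signal cannot be given to 1 gene. They belong to Ndufs5, Ndufb4 (2 probe sets), Ndufa11, Ndufs6 and Ndufab1 with copies or pseudogenes of these genes, to Ndufa13 with Yjefn3, and to Ndufb2 with Adck2. None passed the test in the 6 comparisons, and the smallest adjusted p was 0.844. Their differences lay between -0.18 and 0.22.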
